A study of Rattus norvegicus with 12 samples.

Results

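Sqle, Idi1, Cyp51, Sc5d, Scd2 and Vldlr were followed in rat fibroblasts that carried or lacked c-myc, with and without rapamycin, a macrolide that inhibits mTOR complex 1. These 6 genes were taken by symbol from the submitters' lists of features that changed with rapamycin, which named 1710 genes. Each was represented by 1 listed feature among the 22523 on the array. Features outside the lists could not be named, so any others for these genes were not seen. All 6 stood on the list for the c-myc intact line and Sqle alone also stood on the list for the c-myc null line. The listing was made on these same arrays. The direction, size and p-value of the rapamycin change in the intact line are therefore no independent result for any of the 6. The same holds for Sqle in the null line.

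The arrays formed 4 groups of 3. TGR-1 cells (c-Myc+/+), an hprt-negative subclone of the Rat-1 embryonic fibroblast line, and HO15.19 cells (c-Myc-/-), made from TGR-1 by homologous recombination, were each given DMSO vehicle or 50 nM rapamycin for 24 hr in medium with bovine calf serum. By the methods, the biological replicates behind the arrays of a group were independent. Each genotype was 1 cell line, the lines were plated at different numbers, and the labels gave doubling times of 18 to 21.5 hr for TGR-1 and 45 to 60 hr for HO15.19, so the loss of c-myc, the line and its rate of growth cannot be told apart here.

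Cells make cholesterol from acetyl-CoA through the mevalonate pathway, in which isoprenoid units are joined to squalene, squalene is closed into lanosterol, and lanosterol is trimmed to cholesterol. When sterol in the endoplasmic reticulum is low, SREBP transcription factors are released to the nucleus, where, with NF-Y and Sp1, they activate most genes of the pathway and several of fatty acid desaturation and lipoprotein uptake. mTOR complex 1 is known to promote SREBP activity, and c-Myc, which binds E-boxes as a dimer with Max, is known to act on metabolic genes in growing cells. Idi1 (isopentenyl-diphosphate isomerase) makes dimethylallyl diphosphate, Sqle (squalene epoxidase) performs the first oxygenation of squalene, Cyp51 is lanosterol 14-alpha-demethylase, and Sc5d (sterol-C5-desaturase) acts late in the pathway. Scd2 is a stearoyl-CoA desaturase that makes monounsaturated fatty acids, and Vldlr is a lipoprotein receptor that binds apolipoprotein E-rich particles and reelin.

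Promoter sequence is shown because 4 of these genes moved together between the lines while Vldlr did not. RefSeq's windows on build GRCr8 (250 bases before and 50 after the start) were matched for 5 of the 6 genes, Sqle being the other. The 250 bases before each start lay at chr17:66547525-66547774 (minus strand) for Idi1, chr4:30991443-30991692 (plus strand) for Cyp51, chr8:51538278-51538527 (minus strand) for Sc5d, chr1:253118127-253118376 (plus strand) for Scd2 and chr1:234240436-234240685 (plus strand) for Vldlr. They are printed 5′ to 3′ toward the gene, with matches on either strand to CCAAT (NF-Y), GGGCGG (the Sp1 GC box), CACGTG (the canonical E-box) or TCACNCCAC (a sterol regulatory element consensus) in capitals.
Idi1: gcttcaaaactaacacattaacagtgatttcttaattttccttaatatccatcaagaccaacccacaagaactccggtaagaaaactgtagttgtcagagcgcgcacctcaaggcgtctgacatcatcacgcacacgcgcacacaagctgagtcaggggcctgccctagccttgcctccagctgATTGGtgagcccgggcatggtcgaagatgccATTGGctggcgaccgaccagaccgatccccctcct
Cyp51: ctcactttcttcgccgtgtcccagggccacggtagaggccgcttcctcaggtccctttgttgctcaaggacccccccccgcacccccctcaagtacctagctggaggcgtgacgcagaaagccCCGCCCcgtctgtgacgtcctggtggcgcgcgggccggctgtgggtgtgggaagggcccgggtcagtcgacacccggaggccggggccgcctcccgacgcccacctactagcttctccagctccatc
Sc5d: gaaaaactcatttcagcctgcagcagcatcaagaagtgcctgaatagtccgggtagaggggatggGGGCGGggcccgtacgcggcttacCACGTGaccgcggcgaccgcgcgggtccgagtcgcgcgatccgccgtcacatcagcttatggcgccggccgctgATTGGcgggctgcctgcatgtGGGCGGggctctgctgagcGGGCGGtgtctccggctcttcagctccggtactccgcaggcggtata
Scd2: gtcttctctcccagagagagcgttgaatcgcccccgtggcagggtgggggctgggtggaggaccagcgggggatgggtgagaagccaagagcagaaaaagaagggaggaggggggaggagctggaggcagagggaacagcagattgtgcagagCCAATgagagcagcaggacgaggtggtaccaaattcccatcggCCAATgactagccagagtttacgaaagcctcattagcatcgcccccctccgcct
Vldlr: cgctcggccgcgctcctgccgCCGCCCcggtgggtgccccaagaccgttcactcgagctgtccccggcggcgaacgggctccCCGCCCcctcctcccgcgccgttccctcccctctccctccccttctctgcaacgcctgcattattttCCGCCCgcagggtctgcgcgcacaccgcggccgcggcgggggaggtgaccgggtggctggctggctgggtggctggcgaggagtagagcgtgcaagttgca

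CCAAT stood in the windows of Idi1, Sc5d and Scd2 (3 of 5 members, against 37.5% of all 33469 windows in the table), with 2 matches each in Idi1 and Scd2. The pair lay 66 and 35 bases before the start in Idi1, and 97 and 54 bases before it in Scd2. GGGCGG stood in Cyp51, Sc5d and Vldlr (3 of 5, against 33.1% of windows). Sc5d alone held a CACGTG, at 161 bases before its start (1 of 5, against 6.42% of windows). TCACNCCAC was in none of the 5 and in 1.12% of all windows. Only exact matches within the windows were sought, so a variant element or one farther away would be missed. No 2 matches overlapped. Cyp51 and Vldlr each held GC boxes and no CCAAT, although Cyp51 was lower in HO15.19 like Idi1 and Scd2 and Vldlr was not. Whether the matches relate to the pattern between the lines was not tested.

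**Figure D1:**
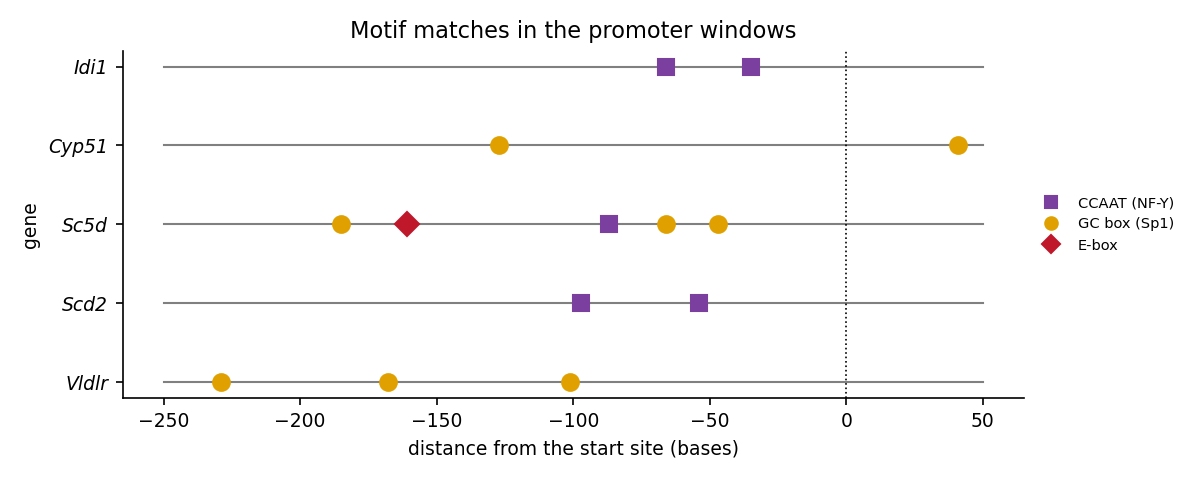
Positions of motif matches, by their first base, along the promoter windows of 5 genes, from 250 bases before to 50 bases after the start site (dotted line); squares are CCAAT, circles GC boxes and the diamond the E-box. CCAAT pairs stand in Idi1 and Scd2, 3 GC boxes each in Sc5d and Vldlr, and the E-box in Sc5d, 161 bases before its start.

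Signals are given as normalized log2 bead signals after background correction, and a difference of 1 on this scale is a doubling. A feature was called changed when limma's test over all 10852 features detected on at least 3 arrays gave an adjusted p (Benjamini-Hochberg) below 0.05, provided that its unadjusted p did not exceed 0.01 and its change reached 1.2-fold or more. All 6 genes passed the detection filter and were detected on all 12 arrays. Between 9605 and 10472 features were detected per array, and arrays of one group correlated at 0.989 or above. Myc itself read 8.97 to 9.07 in TGR-1 control cells, 9.53 to 9.76 in TGR-1 rapamycin cells, and 7.69 to 8.19 on the HO15.19 arrays. Its signal was thus lower in HO15.19 (log2 difference with DMSO -1.19 ± 0.12 SE, limma adjusted p = 5.67e-07) yet detected on all 6 of them. The position of this probe relative to the deleted part of the gene is not stated in the labels or methods. Of 13 fibroblast markers, 4 were named by the lists; Fn1, Col1a1 and Col3a1 were detected on every array, and Lum on the 6 HO15.19 arrays alone. None of the 8 adipocyte, 7 hepatocyte, 5 epithelial and 4 endothelial markers was among the named features, so those could not be checked. Of 5 leukocyte markers Cd14 was named; it was detected on all 12 arrays, from 6.91 to 8.02, and was called higher in HO15.19 with rapamycin (0.43, limma adjusted p = 0.0226), and its part in the results was not tested.

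In TGR-1 cells, the contrast on which they were listed, all 6 genes were lower with rapamycin than with DMSO. Of these, 2 passed the test, Vldlr and Sc5d, where 3.96% of all features passed. Of the 463 listed features with a negative change in TGR-1, 30.7% were called lower there. In HO15.19 cells none of the 6 passed, where 5.14% of all features did. With DMSO the contrast between the lines was larger than the drug's for the 4 sterol enzymes and Scd2, but not for Vldlr. The 4 sterol enzymes and Scd2 were 2.36 to 5.26 times lower in HO15.19 than in TGR-1 with DMSO, whereas Vldlr did not differ beyond its spread.

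Idi1, the isomerase early in the pathway, read 9.91, 10.00 and 10.02 in TGR-1 control cells and 9.57, 9.74 and 9.58 with rapamycin. In HO15.19 cells it read 8.52, 8.28 and 8.61 with DMSO and 8.43, 8.29 and 8.30 with rapamycin. The lines were far apart, the TGR-1 drug and control arrays did not overlap, and the HO15.19 ones did. With DMSO Idi1 was lower in HO15.19 by 2.84-fold (log2 difference -1.51 ± 0.11 SE, n = 3 per group, limma adjusted p = 2.92e-08) and with rapamycin by 2.44-fold (-1.29 ± 0.11, limma adjusted p = 1.87e-07). The rapamycin change was -0.35 ± 0.11 in TGR-1 (limma adjusted p = 0.102) and -0.13 ± 0.11 in HO15.19 (limma adjusted p = 0.595), neither of them called.

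Sqle, the epoxidase, read 10.31, 10.10 and 10.13 in TGR-1 control cells and 9.68, 9.92 and 9.71 with rapamycin. Its HO15.19 values were 9.01, 8.92 and 8.90 with DMSO and 8.62, 8.81 and 7.93 with rapamycin. No 2 groups overlapped, and 1 HO15.19 rapamycin array stood well below the other two. Sqle was lower in HO15.19 by 2.36-fold with DMSO (-1.24 ± 0.17 SE, limma adjusted p = 2.45e-05) and by 2.49-fold with rapamycin (-1.31 ± 0.17, limma adjusted p = 1.23e-05). The rapamycin change was of like size in the lines, -0.41 ± 0.17 in TGR-1 (limma adjusted p = 0.208) and -0.49 ± 0.17 in HO15.19 (limma adjusted p = 0.113). Neither was called, and the HO15.19 value rested on replicate 3, being -0.23 without that array.

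Cyp51, the demethylase, was the member nearest to the limit of detection. It read 7.02, 7.24 and 6.95 in TGR-1 control cells and 6.58, 6.54 and 6.59 with rapamycin, against 5.35, 5.62 and 5.81 in HO15.19 control cells and 5.00, 5.44 and 5.84 with rapamycin. The lines did not overlap, and within HO15.19 the treated arrays spread on both sides of the controls. Cyp51 was lower in HO15.19 by 2.79-fold with DMSO (-1.48 ± 0.17 SE, limma adjusted p = 3.99e-06) and by 2.21-fold with rapamycin (-1.15 ± 0.17, limma adjusted p = 5.27e-05). In HO15.19 its detection p reached 0.0461 on 1 array, and the size of these differences moved with the background correction, to -0.78 with DMSO and -0.54 with rapamycin when none was applied, both still called. The rapamycin change was -0.50 ± 0.17 in TGR-1 (limma adjusted p = 0.123; -0.31 with no background correction) and -0.17 ± 0.17 in HO15.19 (limma adjusted p = 0.67).

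Sc5d, the late desaturase, whose promoter window held an E-box, read 8.87, 8.85 and 9.03 in TGR-1 control cells and 8.26, 8.49 and 8.53 with rapamycin. It read 7.67, 7.58 and 7.55 in HO15.19 control cells and 7.66, 7.79 and 7.84 with rapamycin. The treated arrays lay below the controls in TGR-1, while in HO15.19 2 of 3 lay above every control. In TGR-1 it fell by 0.49 on the log2 scale (95% interval -0.73 to -0.25, limma adjusted p = 0.0201), a call that was lost when any of 5 of the 6 TGR-1 arrays was left out (adjusted p from 0.0503 to 0.105). In HO15.19 the change was 0.17 (95% interval -0.07 to 0.40, limma adjusted p = 0.471). Sc5d was lower in HO15.19 by 2.49-fold with DMSO (limma adjusted p = 1.24e-07) and by 1.58-fold with rapamycin (limma adjusted p = 0.000183).

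Scd2, the fatty acid desaturase, read 9.25, 9.19 and 8.90 in TGR-1 control cells and 8.58, 8.78 and 8.43 with rapamycin. Its HO15.19 values were 6.85, 6.49 and 6.81 with DMSO and 6.31, 6.68 and 6.11 with rapamycin. The gap between the lines was the widest of the 6 genes under both conditions. Scd2 was lower in HO15.19 by 5.26-fold with DMSO (-2.40 ± 0.16 SE, limma adjusted p = 4.36e-09) and by 4.69-fold with rapamycin (-2.23 ± 0.16, limma adjusted p = 1.03e-08), and 0.0184% of all features tested had a change at or below its DMSO value. The rapamycin change was -0.52 ± 0.16 in TGR-1, with groups that did not overlap (limma adjusted p = 0.0754), and -0.35 ± 0.16 in HO15.19, with groups that did (limma adjusted p = 0.227). The HO15.19 change was -0.23 without rapamycin replicate 3 and -0.20 with no background correction, and with no background correction the differences between the lines were -1.82 with DMSO and -1.57 with rapamycin, both still called. Scd2 belongs to a family of close paralogues, and probe sequences were not used here, so signal from a related desaturase cannot be told apart.

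Vldlr, the receptor, read 8.22, 8.18 and 7.34 in TGR-1 control cells and 6.85, 6.79 and 6.65 with rapamycin. In HO15.19 it read 7.74, 7.53 and 8.29 with DMSO and 7.32, 7.66 and 7.48 with rapamycin. Only the TGR-1 rapamycin group stood apart, below the other 3 groups, which overlapped one another. In TGR-1 Vldlr fell 2.21-fold (-1.15 ± 0.21 SE, 95% interval -1.59 to -0.70, limma adjusted p = 0.00483), and 0.0276% of all features had a change at or below this. In HO15.19 the change was -0.37 ± 0.21 (limma adjusted p = 0.385) and rested in part on control replicate 3, being -0.14 without that array. The lines differed by -0.06 ± 0.21 with DMSO (95% interval -0.50 to 0.39, limma adjusted p = 0.86), an interval that still allows a modest difference either way, and with rapamycin Vldlr was 1.65-fold higher in HO15.19 (0.72 ± 0.21, limma adjusted p = 0.0126).

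**Figure D2:**
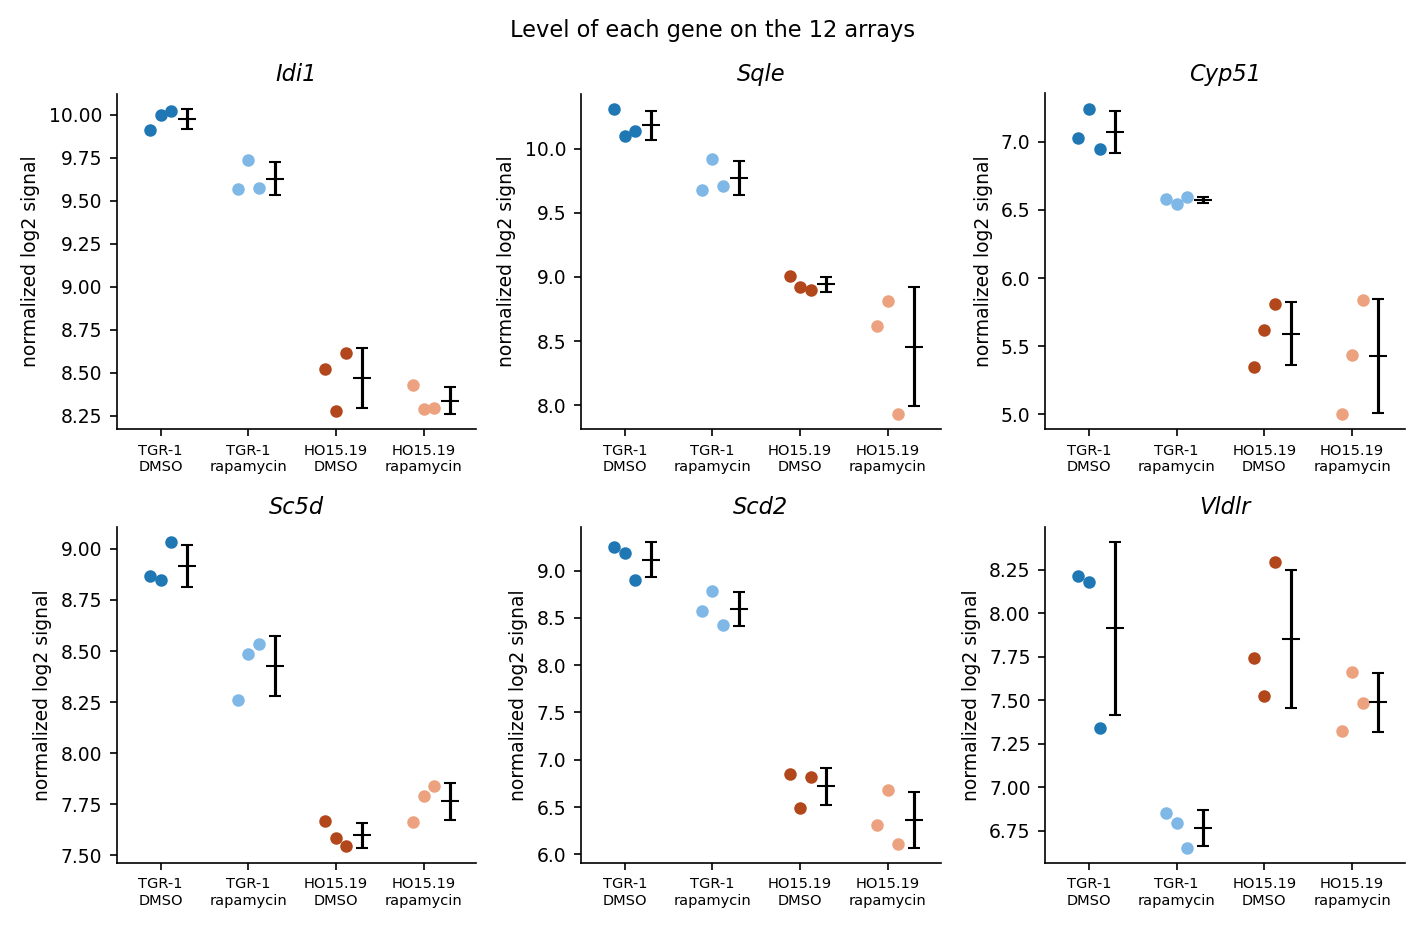
Normalized log2 signal (y axis, a separate scale for each gene) on each of the 12 arrays, in 4 groups of 3 with DMSO or rapamycin; points are arrays and bars are the mean ± SD. For 5 genes the 6 HO15.19 arrays lie below the 6 TGR-1 arrays, while for Vldlr only the 3 TGR-1 rapamycin arrays, from 6.65 to 6.85, stand apart. The share of all features that separate in these ways was not counted, and 31.4% of them were called between the lines with DMSO.

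Ordered by level, TGR-1 control came first and TGR-1 rapamycin second for the 4 sterol enzymes and Scd2. These neighbours did not overlap, nor did TGR-1 rapamycin and the higher HO15.19 group. The step between the TGR-1 groups is the contrast behind the listing. How many of all features separated in this way was not counted. The HO15.19 groups overlapped each other for Idi1, Cyp51, Sc5d and Scd2, so their order is not settled, and for Sqle they were separated by 0.08. For Vldlr the order was TGR-1 control, HO15.19 control, HO15.19 rapamycin, TGR-1 rapamycin, and only the last step was wider than the spread.

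Counted over the comparisons, 2 of the 6 genes were called lower with rapamycin in TGR-1, where 1.45% of all features were called lower and 3.96% in either direction. All 6 changes were negative there, with a median of -0.49 against -0.0025 over all features, which is the contrast behind the listing. The 463 listed features with a negative change in TGR-1 are the closer reference. Of them, 30.7% were called lower in TGR-1, and their median there was -0.41. In HO15.19, 0 of 6 were called (limma) and 2 had an unadjusted p under 0.05 (18.6% of all features did), Sqle and Scd2, where 2.64% of features were called lower and 5.14% in either direction. The median change of the 6 in HO15.19 was -0.26, and 5 of the 6 were negative. Of all 463 listed features with a negative change in TGR-1, 18.8% were called lower in HO15.19 and their median there was -0.23.

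The difference of the rapamycin change between the lines was tested as an interaction. It subtracts the TGR-1 change on which the genes were listed, so its sign is not independent of the listing. The 463 listed features with a negative change in TGR-1 had a median difference of 0.20, and 21.6% of them were negative. None of the 6 was called (limma), where 0.111% of all features were, and 2 had an unadjusted p under 0.05, as did 9.74% of all features. Sc5d differed by 0.66 (95% interval 0.32 to 0.99, unadjusted p = 0.000719, limma adjusted p = 0.13) and Vldlr by 0.78 (95% interval 0.15 to 1.41, unadjusted p = 0.0179, limma adjusted p = 0.385). The positive sign means a smaller fall, or a rise, in HO15.19. For Sqle the difference was -0.07 (95% interval -0.58 to 0.43), and for Idi1, Cyp51 and Scd2 it lay between 0.16 and 0.33 with intervals that included 0. The loss of the call in HO15.19 thus does not show that Sc5d or Vldlr responded differently in the null line.

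**Figure D3:**
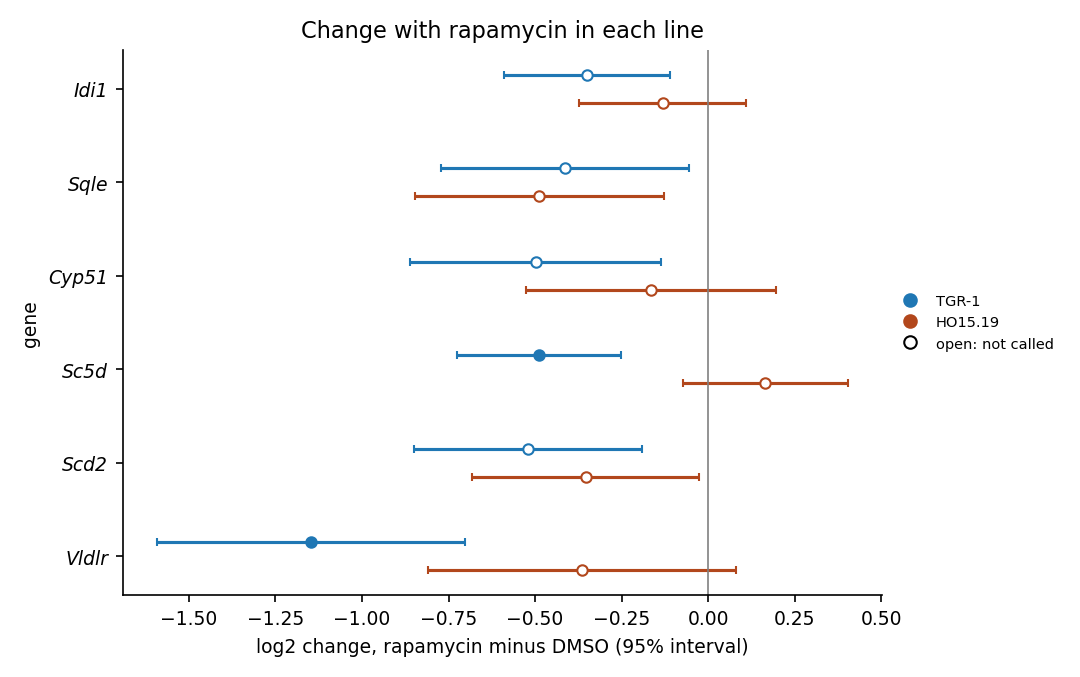
Log2 change with rapamycin (x axis, rapamycin minus DMSO) for the 6 genes in TGR-1 and HO15.19, with 95% intervals from the fit; filled points were called changed. Filled points are Sc5d and Vldlr in TGR-1, and the Sc5d intervals of the lines, -0.73 to -0.25 and -0.07 to 0.40, do not overlap.

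With DMSO 5 of the 6 genes were called lower in HO15.19, where 15.7% of all features were called lower and 31.4% in either direction. With rapamycin the same 5 genes were called lower and Vldlr was called higher, where 16.1% of features were called lower and 31.3% in either direction. The median difference of the 6 was -1.40 with DMSO and -1.22 with rapamycin, against -0.01 over all features in both. Since the listing and the DMSO comparison share the TGR-1 control arrays, a feature read high on those arrays would lean toward both lists, and the rapamycin comparison leans the other way. Of the 463 listed features with a negative change in TGR-1, 50.8% were called lower in HO15.19 with DMSO and 34.3% with rapamycin, with medians of -0.39 and -0.17.

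Mvd and Nsdhl, other genes of the pathway that the lists named, were also lower in HO15.19. Both stood on the list of rapamycin changes in TGR-1, so the sign of their TGR-1 change is no more independent than that of the members. Of 19 cholesterol synthesis genes examined, 6 were named and tested, 4 of them the enzymes above. All 6 were called lower in HO15.19 with DMSO and all 6 with rapamycin (15.7% and 16.1% of all features, and 50.8% and 34.3% of the 463 listed ones, were), with medians of -1.40 and -1.22. Mvd, the decarboxylase that precedes Idi1, differed by -1.84 with DMSO and -1.76 with rapamycin on the log2 scale, and Nsdhl, a demethylating dehydrogenase that follows Cyp51, by -0.87 and -0.45. Of the 6 rapamycin changes in TGR-1, where the listing fixes the sign, 1 was called, that of Sc5d. There 1.45% of all features and 30.7% of the 463 listed ones were called lower. In HO15.19 4 of the 6 were negative and 0 were called (limma), 2 having an unadjusted p under 0.05. The remaining 13 pathway genes examined, and all 7 genes of the SREBP machinery on the list used here, were on neither list of the submitters and could not be named.

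**Figure D4:**
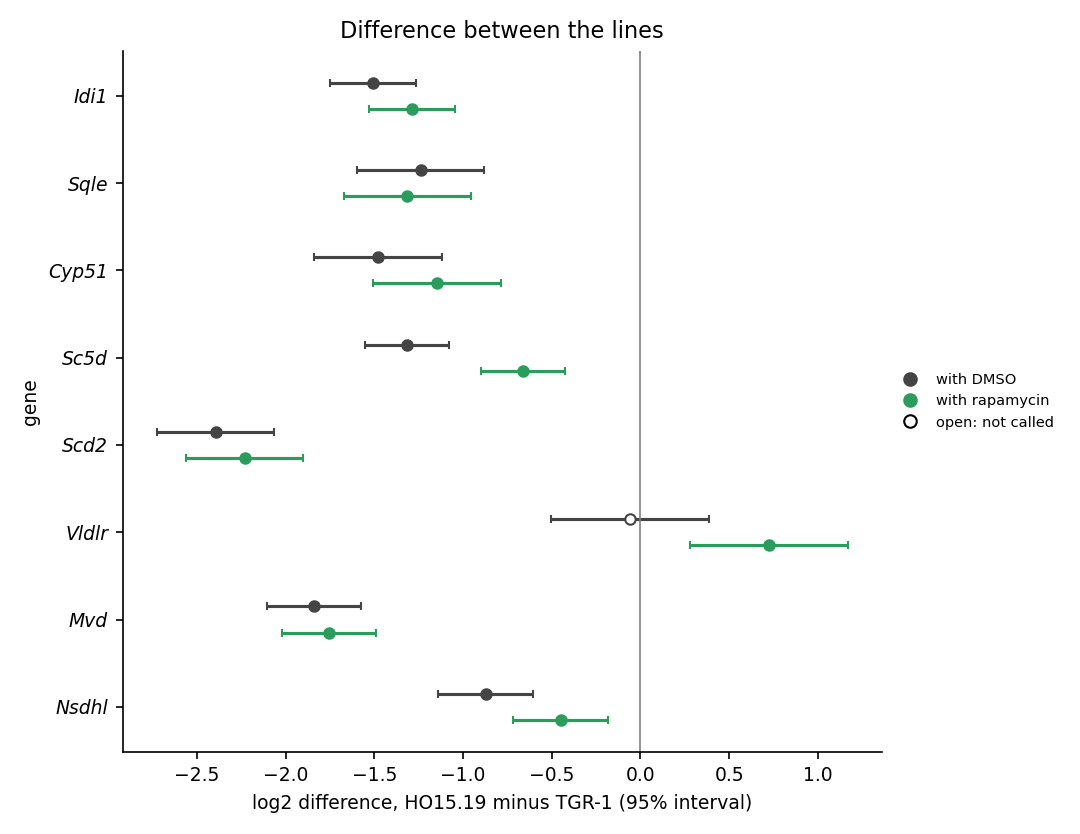
Log2 difference between the lines (x axis, HO15.19 minus TGR-1) with DMSO and with rapamycin for the 6 genes and for Mvd and Nsdhl, with 95% intervals from the fit; filled points were called changed. The sterol enzymes and Scd2 lie left of 0 in both conditions, from -0.45 for Nsdhl with rapamycin to -2.40 for Scd2 with DMSO, and Vldlr lies at -0.06 and 0.72.

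The other lipid genes that the lists named were higher in HO15.19 with DMSO or were not called. Of 17 sterol uptake and transport genes only Vldlr and Scarb2, a lysosomal membrane protein that binds cholesterol, were named. Scarb2 was higher in HO15.19 with DMSO by 1.28 ± 0.10 SE (limma adjusted p = 5.55e-08) and rose with rapamycin in TGR-1 by 0.56 ± 0.10 (limma adjusted p = 0.00471). Both were opposite in sign to the sterol enzymes, but Scarb2 was listed on its TGR-1 change, so the sign of that rise is no independent result. Of 12 LXR targets and efflux genes 2 were named, Pltp, the phospholipid transfer protein, and the receptor Nr1h2, and both were higher in HO15.19 with DMSO, by 1.22 and 0.40. Of 29 fatty acid synthesis and desaturation genes 4 were named, and next to Scd2 only Tecr, an enoyl reductase of fatty acid elongation, was called between the lines with DMSO, being higher in HO15.19 by 0.44 (limma adjusted p = 0.0165). The acyl-CoA synthetases Acsl1 and Acsl3 differed by -0.08 and -0.17 and were not called. With DMSO 1700 of the 10852 features tested were called higher in HO15.19. Scarb2, Pltp, Nr1h2 and Tecr all stood on the TGR-1 list with a positive change. A feature read low on the TGR-1 control arrays would lean toward both that list and a higher value in HO15.19 with DMSO.

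Across the 12 arrays the 10 pairs among the 4 sterol enzymes and Scd2 correlated at 0.85 to 0.99, values that rest mainly on the difference between the lines. Vldlr correlated with these 5 genes at -0.14 to -0.02 over 12 arrays. With each group's mean removed, the 10 pairs ranged from -0.66 to 0.72 and the pairs with Vldlr from -0.46 to 0.64. Among 1703 named features of other genes, Mvd was the most like Idi1 (r = 0.99 over 12 arrays), Exosc2 most like Sqle (0.97), Naa10 most like Cyp51 (0.98), Tfrc, the transferrin receptor, most like Sc5d (0.98), and Orc1 most like Scd2 (0.99). Mvd was also among the nearest to Scd2 (0.98). The features most like Vldlr were Bnip3 (0.94), Bnip3-ps1 (0.93), whose signal cannot be told apart from that of Bnip3, and Pdk1 (0.89), a pyruvate dehydrogenase kinase.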

How the data were processed

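Total RNA was labelled and hybridised to Illumina RatRef-12 BeadChips by the authors. The deposited files held mean bead intensity per feature with a detection p-value against each array's negative controls, and the authors' intensity values after quantile normalization in BeadStudio. The authors' lists of changed features (Partek 6.3) also held their fold changes and p-values, which were not used. The lists served to name features, to select the 6 members and to define the set of 463 listed features. By Entrez identifier 1551 features were named, 2 by accession, and 181 kept the listed name. Neither the labels nor the methods say whether background had been subtracted before deposit.

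Intensities were background corrected and quantile normalized with neqc (offset 16) in limma 3.58.1 (R 4.3.3). Of 22523 features, 10852 (48.2%) were kept, those whose detection p was below 0.05 on 3 or more of the 12 arrays. One fit of 4 group means gave all comparisons, two-sided, with eBayes and Benjamini-Hochberg adjustment over all features kept, and the spread shared by all groups. Scripts were tested on simulated data. The number of arrays limits the precision. The members, gene lists and motifs were chosen with earlier results of these data known. All 6 members are named in every comparison, and of the listed genes up to 4 others per list. Some of these others, such as Acsl1, Acsl3 and Col3a1, were called in no comparison, so being named does not mean being called. Some genes are not reported here. A gene with several named features was represented by the brightest. Alternatives covered background correction, normalization, filter, variance model, samples, test, threshold, replicate number and each array left out.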

Additional observations from a re-analysis of the deposited data

How the results depend on the processing

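Between the lines, the differences of Idi1, Sqle, Cyp51, Sc5d and Scd2 kept direction and call in all 230 values recomputed under the alternatives, and the counts of members called, 5 with DMSO and 6 with rapamycin, ranged from 5 to 6. Vldlr with rapamycin was no longer called with no filter on dim features (adjusted p = 0.0571), nor without TGR-1 rapamycin replicate 3 or HO15.19 rapamycin replicate 2 (changes of 0.67 and 0.64). The count called with rapamycin in TGR-1, 2 of 6, was the least stable. It became 5 with no background correction, with the authors' normalized values and with no Benjamini-Hochberg condition, 4 with array weights and with only the groups compared, and 0 by the methods' t-test (58 features called in all), and it ranged from 1 to 4 when an array was left out. It was 1, Vldlr alone, without any one of the TGR-1 control arrays or TGR-1 rapamycin replicates 1 or 2, and 4 without HO15.19 rapamycin replicate 3, which enters only the shared spread. In HO15.19 the count of 0 ranged from 0 to 1, Sqle being called (-0.67, adjusted p = 0.0278) without rapamycin replicate 2. The count for the difference of the rapamycin change, 0, became 1, Sc5d, with no background correction (adjusted p = 0.0291), with the authors' normalized values (0.0275) and with no Benjamini-Hochberg condition. Leaving out arrays reversed 3 uncalled values: Vldlr between the lines with DMSO ranged from -0.34 to 0.11 (0.09, 0.08 and 0.11 where reversed), the Sqle difference of the rapamycin change from -0.26 to 0.19 (0.00 without TGR-1 rapamycin replicate 2), and Cyp51 with rapamycin in HO15.19 from -0.37 to 0.047. The causes were not tested. Same-numbered arrays deviated together at r from -0.23 to 0.28, so a pairing by number was not shown, nor could it be excluded with 3 arrays a group. With a replicate block the member counts were 2, 0, 0, 5 and 6, as without it, and 428 features in all were called with rapamycin in TGR-1 against 430. With 3 arrays a group, depth beyond the detection p could not be judged, and signal over background limited Cyp51 and Scd2 in HO15.19 most.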
